A study of Homo sapiens with 12 samples.

Results

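The genes described here are the 3 netrin-G ligands LRRC4, LRRC4B and LRRC4C and the 2 netrin-Gs, NTNG1 and NTNG2. They were taken by symbol from the count files, which list all 5 among 25369 genes, and all 5 had enough reads to be tested. RNA-seq counts came from 4 stable lines of U2OS Tet-On cells, each grown in 3 biological replicates, which makes 12 samples. U2OS is a human osteosarcoma cell line, and in Tet-On cells doxycycline switches on a gene placed behind a Tet-responsive promoter. The pTRE line carried the empty vector, the WT line wild-type E2F1, the KK line an E2F1 in which a pair of arginines methylated by PRMT5 was changed to lysine, and the R109K line an E2F1 in which the arginine methylated by PRMT1 was changed to lysine. Every line, pTRE included, was kept in G418 and hygromycin B and received doxycycline at 1 ug/ml for 24 hours. Each construct was measured in 1 stable line, so the construct and the line that carries it cannot be told apart, and whether a line is 1 clone is not given in the sources used here.

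Netrin-Gs are relatives of the secreted netrins that are held on the axon surface by a lipid anchor. Their ligands, the NGL proteins, are transmembrane proteins with leucine-rich repeats that sit on the receiving side of a synapse. LRRC4C (NGL-1) pairs with NTNG1, LRRC4 (NGL-2) pairs with NTNG2, and LRRC4B (NGL-3) pairs instead with receptor phosphatases of the LAR type. Inside the cell the NGL proteins bind DLG scaffold proteins such as PSD-95. LRRC4 is also studied as a gene whose expression is lost in gliomas. E2F1 is a transcription factor that binds promoters at a short core sequence and that drives genes of DNA replication and of cell death.

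Of the 5 genes, only LRRC4 rose in the E2F1 lines by more than 2-fold with an adjusted p under 0.01 (edgeR). Its mean CPM, the reads on a gene scaled to a common library total, was 0.515 ± 0.0513 for pTRE and 6.93 ± 3.78 for WT (SD, n = 3). KK had 4.18 ± 0.585 and R109K 1.76 ± 0.247. LRRC4B, the most abundant of the 5 per kilobase of transcript, had lower mean CPM in the E2F1 lines, by less than 2-fold. LRRC4C, NTNG1 and NTNG2 also differed from pTRE by less than 2-fold in every line.

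LRRC4 lies on the minus strand of chromosome 7, at chr7:127667124-127672160 of GRCh37 (hg19). The sequence stretches shown are those around its start, because they bear on the binding letters of E2F1. All 4 versions of the core (TTTCCCGC, TTTCGCGC, TTTGCCGC and TTTGGCGC) were searched on both strands from 900 bases before to 100 bases after the start of the canonical transcript. LRRC4 had 1 match, 497 bases before its start, within the span of a longer transcript but in no annotated exon of LRRC4. NTNG1 had 1 match, 724 bases before its start, within the span of the gene but in no annotated exon of NTNG1. That site also lies within the span of ENSG00000289612, a long noncoding RNA gene on the same strand (chr1:107682857-107683424). Its exons were not checked. LRRC4B, LRRC4C and NTNG2 had 0 matches in this window, which says only that these letters are not there. Of 13696 tested protein-coding genes, 1403 (10.24%) held a match in the same window. The sites are printed on the strand that reads the core forward, with the core in capitals.
LRRC4 site, chr7:127671969-127671998, minus strand, GRCh37: gctccggagcgTTTCCCGCagccgcgaccc
NTNG1 site, chr1:107682926-107682955, plus strand, GRCh37: gggcttgcttcTTTGCCGCtcctctttccg

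The promoter of LRRC4 in RefSeq, from 250 bases before to 50 bases after the start, was dense in CpG, the dinucleotide that can be methylated. The 3 members found in that promoter table were LRRC4, LRRC4B and NTNG1. The LRRC4 window held 47 CpG in 300 bases and 74.67% G or C. The median over 35116 RefSeq promoters was 14 CpG, and 2.41% of them held at least 47. It held 0 matches to the E2F core, as against 3.315% of the RefSeq promoters with a match. CpG pairs are in capitals, and the build is GRCh38.p14.
LRRC4 promoter, chr7:128031388-128031687, minus strand, GRCh38.p14: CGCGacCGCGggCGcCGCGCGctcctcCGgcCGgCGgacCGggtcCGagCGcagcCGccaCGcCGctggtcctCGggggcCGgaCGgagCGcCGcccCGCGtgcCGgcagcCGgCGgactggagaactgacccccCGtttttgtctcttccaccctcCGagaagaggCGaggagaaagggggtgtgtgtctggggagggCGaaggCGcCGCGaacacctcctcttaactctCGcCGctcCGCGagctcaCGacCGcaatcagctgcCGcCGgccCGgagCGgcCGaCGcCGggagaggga

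The other members lie apart on 4 chromosomes of GRCh37. LRRC4B is at chr19:51020149-51071692 and LRRC4C at chr11:40135753-41481323, both on the minus strand. NTNG1 is at chr1:107682629-108027545 and NTNG2 at chr9:135037445-135119913, both on the plus strand. In the GRCh37 windows around the starts, LRRC4 held 145 CpG, NTNG2 105, NTNG1 62, LRRC4B 35 and LRRC4C 23.

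Between 11500537 and 31040903 reads per sample fell on genes. The fewest came from WT replicate 2, which stood apart, since 58.7% of its reads fell outside annotated genes, as against 23.6% to 29.6% in the other 11 samples. Fold changes and levels of LRRC4 that rest on it are therefore also given without it. E2F1 itself, native and introduced reads together, was between 82.9 and 101 CPM in pTRE and between 932 and 2315 CPM in the 9 samples of the E2F1 lines. Its CPM was 1469 to 2315 in WT, 1112 to 1478 in KK and 932 to 1283 in R109K, and R109K lay below WT in every sample (log2 difference −0.65 ± 0.18, SE, adjusted p = 0.0577, edgeR).

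LRRC4 was barely detected in the line without introduced E2F1. Its 3 pTRE samples had 13, 12 and 15 reads, or 0.537, 0.456 and 0.551 CPM. The WT samples had 6.66, 10.8 and 3.29 CPM in replicates 1, 2 and 3. KK had 4.84, 3.94 and 3.75 CPM, and R109K had 1.98, 1.49 and 1.80 CPM. All 9 samples of the E2F1 lines were above all 3 pTRE samples, all R109K samples were below all WT and KK samples, and WT and KK overlapped. WT spread widely, with its replicate 3 below every KK sample and its replicate 2 above every other sample. The study had picked LRRC4 from these same samples for its higher level in KK than in R109K, so its changes are not independent evidence of their direction. The paper also measured LRRC4 on its own in each line and reports a similar pattern. It further reports lower LRRC4 expression after the cells' own E2F1 was silenced.

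**Figure D1:**
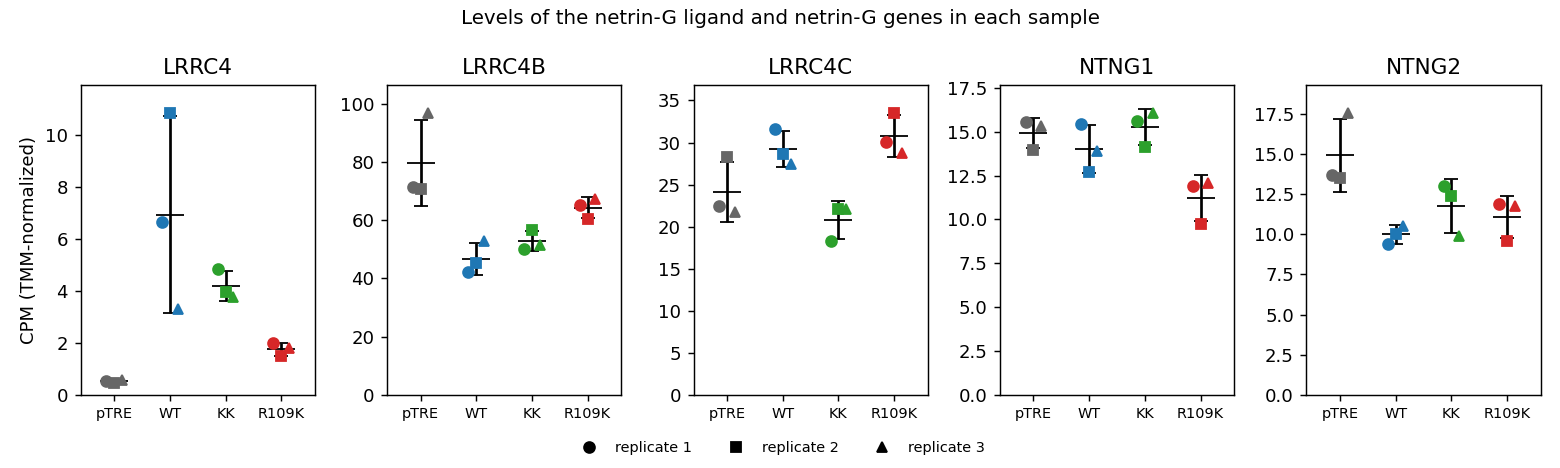
CPM of the 5 genes in each of the 12 samples, 1 panel a gene, with the 4 lines along the horizontal axis, 1 marker shape a replicate and a bar for the mean ± SD. In the LRRC4 panel the pTRE samples lie between 0.456 and 0.551 CPM and the R109K samples between 1.49 and 1.98, below every WT and KK sample.

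Against pTRE, the log2 change of LRRC4 was 3.71 ± 0.38 in WT (SE, n = 3 against 3, 13.1-fold, adjusted p = 2.69e-06, edgeR). In KK it was 3.01 ± 0.38 (8.06-fold, adjusted p = 2.08e-05). In R109K it was 1.76 ± 0.40 (3.39-fold, adjusted p = 0.00348). LRRC4 thus rose in all 3 lines, and it was the only 1 of the 5 members past both thresholds, an adjusted p under 0.01 and a change over 2-fold. The study had picked LRRC4 as an E2F target candidate from these same samples, so these p-values are not independent evidence. Among all 16625 genes tested, 11.8% passed in WT, 10.9% in KK and 7.19% in R109K, and 7.89%, 7.01% and 4.64% did so upward. Without WT replicate 2 the log2 change in WT was 3.26 (adjusted p = 8.36e-07), and the mean of the other 2 WT samples was 4.97 CPM. The call in R109K was lost without any 1 of the pTRE samples or without R109K replicate 1, with adjusted p-values of 0.0146 to 0.0181.

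Directly compared with WT, LRRC4 was 3.85-fold lower in R109K (log2 −1.94 ± 0.33, SE, adjusted p = 0.00684, edgeR). The same low R109K samples entered the study's choice of LRRC4, so this p is not independent evidence. LRRC4 was the only 1 of the 5 members called there, beside 0.343% of all tested genes in either direction and 0.247% downward. Without WT replicate 2 the log2 difference was −1.50 and the call held (adjusted p = 0.00863). It did not hold without WT replicate 1 or without any 1 of the R109K replicates, where adjusted p was 0.0234 to 0.0440 and 3 to 7 genes of all tested were called. It was also lost with a model of only these 6 samples (adjusted p = 0.0636), which called 0 of all 16179 genes it tested, with the replicate number as a block (adjusted p = 0.0135) and in a test against 2-fold (adjusted p = 0.950), so that 7 of 14 alternatives lost it. Against KK, R109K was lower by 1.25 ± 0.33 on the log2 scale (2.38-fold), given as a description with no p since LRRC4 was picked for it. KK was lower than WT by 0.70 ± 0.31 on the log2 scale and did not pass (adjusted p = 0.574), and without WT replicate 2 that value was −0.25.

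No other member differed past the thresholds between E2F1 lines. In R109K against KK, 0 of 5 were called by edgeR and by DESeq2, beside 0.0902% of all tested genes by edgeR, while 3 of the 4 members other than LRRC4 had an unadjusted p under 0.05, as did 12.4% of all tested genes. The replicate numbers of R109K and KK were taken to pair the samples. That pairing was inferred from correlations in these same data, since the labels do not say what a number shares. With that number as a block in a fit of only these 6 samples, chosen after seeing the data, no member other than LRRC4 was called. LRRC4 passed there, but the study had picked it for this comparison, so that call is not evidence. The share of all genes called there was 0.803%, and their count went from 15 to 129. In that fit 4 of the 5 members, LRRC4 among them, had an adjusted p under 0.01, as did 11.5% of all genes. In KK against WT, 0 of 5 were called by either tool, beside 0.00602% of all tested genes by edgeR, and 2 had an unadjusted p under 0.05, as did 8.51% of all tested genes.

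LRRC4 sits inside another gene. It lies wholly in intron 16 of SND1, which has 24 exons on the opposite strand and encodes p100/TSN, a tudor protein that reads methylated arginines. No exon of SND1 overlaps LRRC4. The library kit keeps the strand, but whether the counting used it is not given in the sources used here, so reads from unspliced SND1 and from LRRC4 cannot be told apart. The mean SND1 level was 216 ± 9.75 CPM for pTRE, 189 ± 18.4 for WT, 198 ± 7.62 for KK and 197 ± 4.26 for R109K (SD, n = 3). The log2 changes of SND1 were −0.20, −0.13 and −0.13 for WT, KK and R109K, and none passed the test (adjusted p = 0.156, 0.389 and 0.392).

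The same SND1 intron holds SND1-IT1, a transcript on the SND1 strand at chr7:127637650-127640130, whose level is given beside that of LRRC4. It is annotated as a gene of its own and lies on the strand opposite to LRRC4. Its level is therefore not a direct measure of intron reads in the LRRC4 count. SND1-IT1 had 7.87 CPM in WT replicate 2 and between 0.289 and 1.82 CPM in the other 11 samples. Per kilobase of transcript, WT replicate 2 had 3.17 CPM on SND1-IT1 and 2.58 on LRRC4. WT replicate 1 had 0.215 on SND1-IT1 and 1.59 on LRRC4, and WT replicate 3 had 0.117 and 0.784. In those 2 WT samples, then, LRRC4 was above SND1-IT1, while in all 3 pTRE samples it was below, at 0.109 to 0.131 against 0.267 to 0.716. KK had 1.15, 0.939 and 0.894 on LRRC4 against 0.153, 0.387 and 0.732 on SND1-IT1, and LRRC4 was the higher in each. In R109K, LRRC4 was the higher in replicates 1 and 2 and the lower in replicate 3. SND1-IT1 itself did not pass in any comparison with pTRE (adjusted p = 0.269 in WT, 0.972 in KK and 0.962 in R109K). The part of intron reads in the LRRC4 level of WT replicate 2 was not tested.

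**Figure D2:**
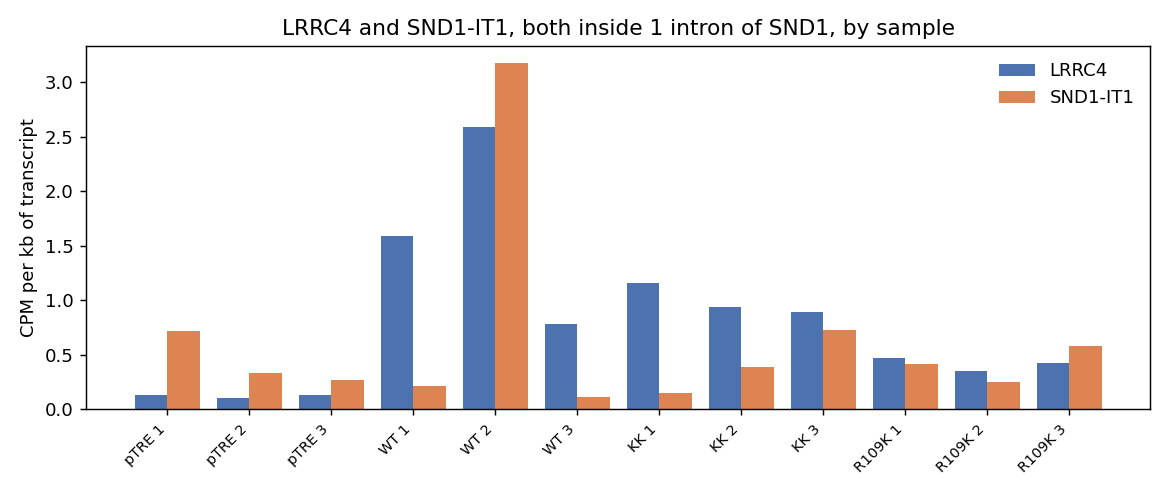
CPM per kilobase of transcript for LRRC4 (blue bars) and SND1-IT1 (orange bars), both within 1 intron of SND1, in each of the 12 samples. Only WT replicate 2 has a high SND1-IT1 bar, 3.17, while LRRC4 is the taller bar in WT replicates 1 and 3 and in all 3 KK samples.

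LRRC4B was lower in the E2F1 lines. Its pTRE samples had 71.2, 70.8 and 96.7 CPM in replicates 1, 2 and 3, and its WT samples 42.0, 45.4 and 52.8. KK had 50.1, 56.5 and 51.5 CPM, and R109K had 65.2, 60.3 and 67.3. Every sample of the E2F1 lines was below every pTRE sample, R109K lay between pTRE and the others with no overlap, and WT and KK overlapped. The log2 change was −0.77 ± 0.13 in WT (SE, 1.70-fold, adjusted p = 3.72e-04, edgeR) and −0.60 ± 0.13 in KK (1.51-fold, adjusted p = 0.00261), under the 2-fold threshold in both. In R109K it was −0.31 ± 0.13 (adjusted p = 0.0994). The adjusted p was under 0.01 with a lower level in 11.4% of all tested genes in WT, 10.7% in KK and 7.23% in R109K. R109K against WT gave 0.46 ± 0.13 (adjusted p = 0.0729). R109K against KK gave 0.29 ± 0.13 (adjusted p = 0.399). With the block on the R109K and KK samples alone, a pairing inferred from these same data, its adjusted p was 0.00768. In that fit 11.5% of all genes had an adjusted p under 0.01. The 1 high pTRE sample, replicate 3, set part of the size: without it the values for WT, KK and R109K were −0.61, −0.43 and −0.15.

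LRRC4C, the ligand of NTNG1, had 22.4, 28.3 and 21.7 CPM in pTRE and 31.6, 28.6 and 27.5 in WT. KK had 18.2, 22.1 and 22.1 CPM, and R109K had 30.1, 33.5 and 28.7. R109K was above pTRE and KK in every sample, WT was above KK in every sample, and the other pairs overlapped. None of the changes against pTRE passed, with log2 values of 0.28 ± 0.13 in WT (SE, adjusted p = 0.107, edgeR), −0.22 ± 0.13 in KK (adjusted p = 0.221) and 0.35 ± 0.13 in R109K (adjusted p = 0.0598). The log2 difference was 0.57 ± 0.13 for R109K against KK (adjusted p = 0.0527). With the block on the R109K and KK samples alone, a pairing inferred from these same data, its adjusted p was 8.37e-05. In that fit 11.5% of all genes had an adjusted p under 0.01. The log2 difference was −0.49 ± 0.13 for KK against WT (adjusted p = 0.574). LRRC4C and LRRC4 therefore stood in different orders: R109K had the highest mean of the 4 lines for LRRC4C, overlapping WT, and the lowest mean of the 3 E2F1 lines for LRRC4.

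NTNG1, the netrin-G that pairs with LRRC4C, had 15.5, 13.9 and 15.4 CPM in pTRE and 15.5, 12.7 and 13.9 in WT. KK had 15.6, 14.1 and 16.1 CPM, and R109K had 11.9, 9.74 and 12.1. Every R109K sample was below every sample of the other 3 lines, which overlapped with each other. The log2 difference of R109K was −0.41 ± 0.13 from pTRE (SE, adjusted p = 0.0275, edgeR), −0.32 ± 0.13 from WT (adjusted p = 0.172) and −0.44 ± 0.13 from KK (adjusted p = 0.123), none past the threshold. With the block on the R109K and KK samples alone, a pairing inferred from these same data, the adjusted p of the last was 0.00212, still under 2-fold. In that fit 11.5% of all genes had an adjusted p under 0.01. WT and KK differed from pTRE by −0.09 and 0.03.

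NTNG2, the netrin-G that pairs with LRRC4, had 13.7, 13.5 and 17.6 CPM in pTRE and 9.40, 10.0 and 10.6 in WT. KK had 13.0, 12.4 and 9.87 CPM, and R109K had 11.9, 9.59 and 11.8. Every sample of the E2F1 lines was below every pTRE sample, and the 3 E2F1 lines overlapped. The log2 change was −0.58 ± 0.15 in WT (SE, 1.49-fold, adjusted p = 0.00741, edgeR), under the 2-fold threshold, and its adjusted p was 0.0104 to 0.0420 when any 1 sample was left out. It was −0.34 ± 0.15 in KK (adjusted p = 0.0879) and −0.43 ± 0.15 in R109K (adjusted p = 0.0443).

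**Figure D3:**
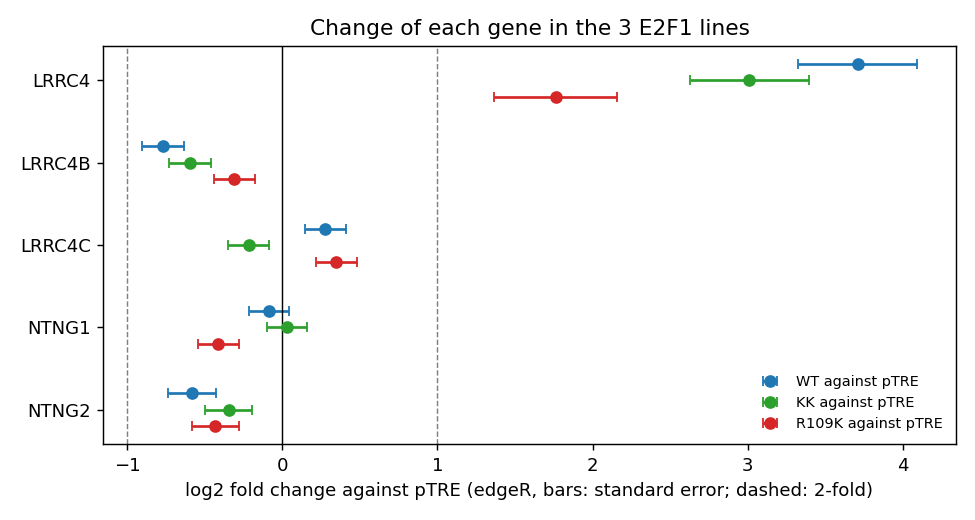
Log2 fold change of each of the 5 genes against pTRE in WT (blue), KK (green) and R109K (red), with bars for the standard error derived from the edgeR test and dashed lines at 2-fold. LRRC4 lies between 1.76 and 3.71, and the other 4 genes lie between −0.77 and 0.35.

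Samples that do not overlap were common in this series and say little alone. Groups were apart in 51.5% of all tested genes for WT against pTRE, 49.4% for KK against pTRE and 47.2% for R109K against pTRE. They were apart in 27.1% for R109K against WT, 21% for R109K against KK and 9.97% for KK against WT.

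Per kilobase of canonical transcript, LRRC4B was the highest of the 5 in every line, with a mean level of 23.8 ± 4.43 CPM per kilobase in pTRE (SD, n = 3). LRRC4C followed at 8.62 ± 1.28, then NTNG2 at 3.20 ± 0.487, NTNG1 at 2.36 ± 0.137 and LRRC4 at 0.123 ± 0.0122. LRRC4 stayed last in the other lines, at 1.65 ± 0.902 (WT), 0.996 ± 0.139 (KK) and 0.419 ± 0.0589 (R109K), and at 1.19 in WT without replicate 2. In WT the LRRC4 samples overlapped those of NTNG1 (2.21 ± 0.219) and NTNG2 (2.14 ± 0.123), and NTNG1 and NTNG2 overlapped in WT and KK. With the length of all exons of a gene in place of the canonical transcript, LRRC4 came before NTNG1 in WT, but not without WT replicate 2 (1.13 against 1.40 CPM per kilobase). The mean level of LRRC4B was 194 times that of LRRC4 in pTRE, 45.8 times in R109K, 15.8 times in KK and 8.45 times in WT (11.9 times without WT replicate 2).

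Within the summed level of the 3 ligands per kilobase, LRRC4 made up 0.347% to 0.435% in the pTRE samples, 1.17% to 1.54% in R109K, 3.65% to 5.11% in KK and 2.97% to 9.81% in WT, where the highest share without replicate 2 was 6.25%. LRRC4B made up 67.5% to 78.5% in pTRE and 49.3% to 59.8% in WT. LRRC4 thus remained the minor ligand RNA in all 12 samples, and LRRC4B was the major one in all 12.

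**Figure D4:**
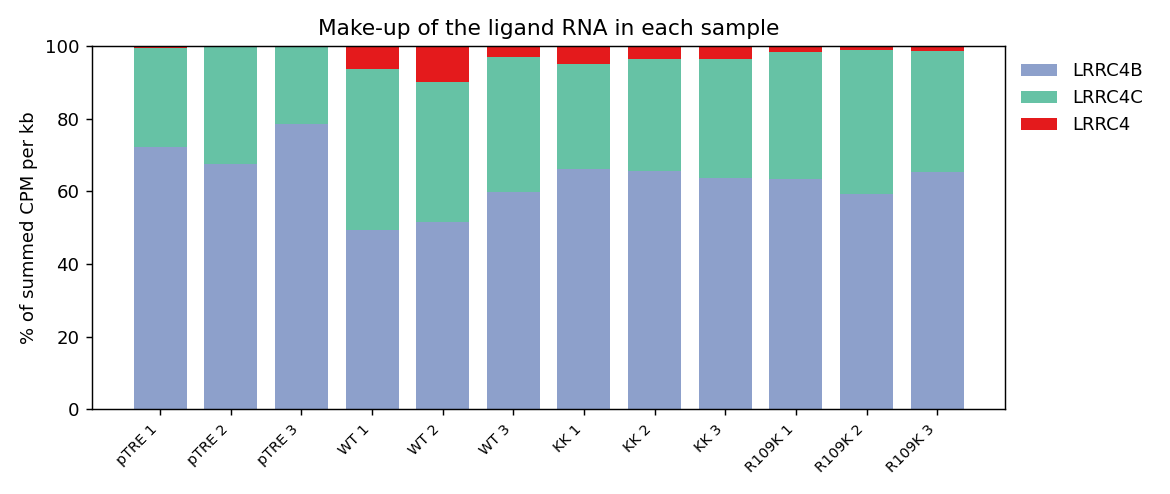
Share of LRRC4B (bottom), LRRC4C (middle) and LRRC4 (top) in the summed CPM per kilobase of the 3 netrin-G ligands, in percent, in each of the 12 samples. The LRRC4 part is at most 0.435% in pTRE and reaches 9.81% in WT replicate 2.

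The partners and relatives of these proteins were counted from 5 lists chosen by function, 62 genes in all, of which 52 were tested. Against pTRE, 4 rose and 4 fell in WT, 5 rose and 6 fell in KK, and 3 rose and 2 fell in R109K. These are 15.4%, 21.2% and 9.62% of the list genes, beside 11.8%, 10.9% and 7.19% of all tested genes. Downward calls made up 3.93%, 3.9% and 2.56% of all tested genes. The median log2 change over the lists was 0.12 in WT, 0.04 in KK and 0.07 in R109K, beside 0.0022, −0.0091 and −0.00074 over all tested genes. Between E2F1 lines 0 of the 52 were called by edgeR or DESeq2, with an unadjusted p under 0.05 in 7 for R109K against WT, 10 for R109K against KK and 4 for KK against WT. These are 13.5%, 19.2% and 7.69% of the list genes, beside 22.3%, 12.4% and 8.51% of all tested genes.

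The LAR-type receptor phosphatases, surface enzymes that bind LRRC4B, were all tested. PTPRF was abundant, at 754 ± 143 CPM in pTRE (SD, n = 3), and did not pass in any line (log2 −0.20, −0.33 and −0.30 in WT, KK and R109K). PTPRS had 278 ± 28.9 CPM in pTRE and 185 ± 37.4, 178 ± 11.8 and 173 ± 26.2 in WT, KK and R109K, under 2-fold (log2 −0.58, −0.64 and −0.68, adjusted p = 0.00726, 0.00407 and 0.00363, edgeR). PTPRD was near the limit of detection, at 0.101 ± 0.0746 CPM in pTRE, and rose in KK to 0.637 ± 0.111 (log2 2.58 ± 0.54, SE, adjusted p = 0.00150). In WT its log2 value was 1.83 (adjusted p = 0.0201) and in R109K 2.00 (adjusted p = 0.0135). All 3 partner genes of LRRC4B had reads in every sample.

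The 4 DLG scaffold genes were all tested and 0 were called in any comparison by edgeR. DLG1, DLG2, DLG3 and DLG4 had log2 values against pTRE of 0.24, 0.03, 0.27 and −0.22 in WT, 0.04, −0.46, 0.29 and −0.35 in KK, and 0.11, −0.42, 0.30 and −0.36 in R109K. DLG4, which encodes PSD-95, was at 29.6 to 41.4 CPM in the pTRE and WT samples.

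Of 11 classical netrins and their receptors, 9 were tested. UNC5B, a receptor of secreted netrins, had 19.6, 21.6 and 22.2 CPM in pTRE and 80.4, 78.3 and 60.6 in WT. KK had 77.4, 61.8 and 66.8 CPM, and R109K had 41.3, 37.1 and 38.6. R109K lay between pTRE and the other lines with no overlap. UNC5B rose in WT (log2 1.79 ± 0.13, SE, adjusted p = 9.80e-08, edgeR) and in KK (1.70 ± 0.13, adjusted p = 1.51e-07). In R109K its change was under 2-fold (0.88 ± 0.13, adjusted p = 1.32e-04). The direct difference of R109K was −0.91 ± 0.13 from WT (adjusted p = 0.00303) and −0.82 ± 0.13 from KK (adjusted p = 0.00981), also under 2-fold. An adjusted p under 0.01 was reached by 0.71% and 0.132% of all tested genes in these 2 comparisons. NTN3, which encodes a secreted netrin, fell in KK from 1.07 ± 0.220 to 0.228 ± 0.116 CPM (log2 −2.17 ± 0.52, adjusted p = 0.00432).

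Of 30 other leucine-rich repeat adhesion genes, 22 were tested, and the calls numbered 4 for WT, 4 for KK and 3 for R109K. LRRTM1, a binder of neurexins, rose in all 3 lines from a mean of 0.0892 CPM, with log2 changes of 2.15, 2.69 and 2.24 in WT, KK and R109K. FLRT1, an adhesion protein that binds latrophilins, rose by 1.77, 1.54 and 1.24 on the log2 scale. FLRT3, of the same family, fell by 1.42 in WT and by 1.59 in KK. ELFN2, a binder of glutamate receptors, fell by 1.04, 1.22 and 1.15 in WT, KK and R109K.

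The 14 neurexin, neuroligin, latrophilin and teneurin genes were all tested. NLGN1, a postsynaptic partner of neurexins, rose from 2.83 ± 0.0990 CPM in pTRE to 8.25 ± 1.34 (WT), 9.64 ± 1.10 (KK) and 7.39 ± 0.590 (R109K), with log2 changes of 1.54, 1.77 and 1.38. TENM3, a large adhesion protein of the teneurin family, fell from 317 ± 24.4 CPM to 106 ± 15.0, 98.1 ± 15.7 and 117 ± 20.3 in WT, KK and R109K (log2 −1.58, −1.69 and −1.44). NRXN3, a presynaptic adhesion protein, fell by 1.49 in WT and 1.27 in KK on the log2 scale. TENM1 fell in KK, by 2.59 on the log2 scale from 0.591 ± 0.0152 CPM.

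**Figure D5:**
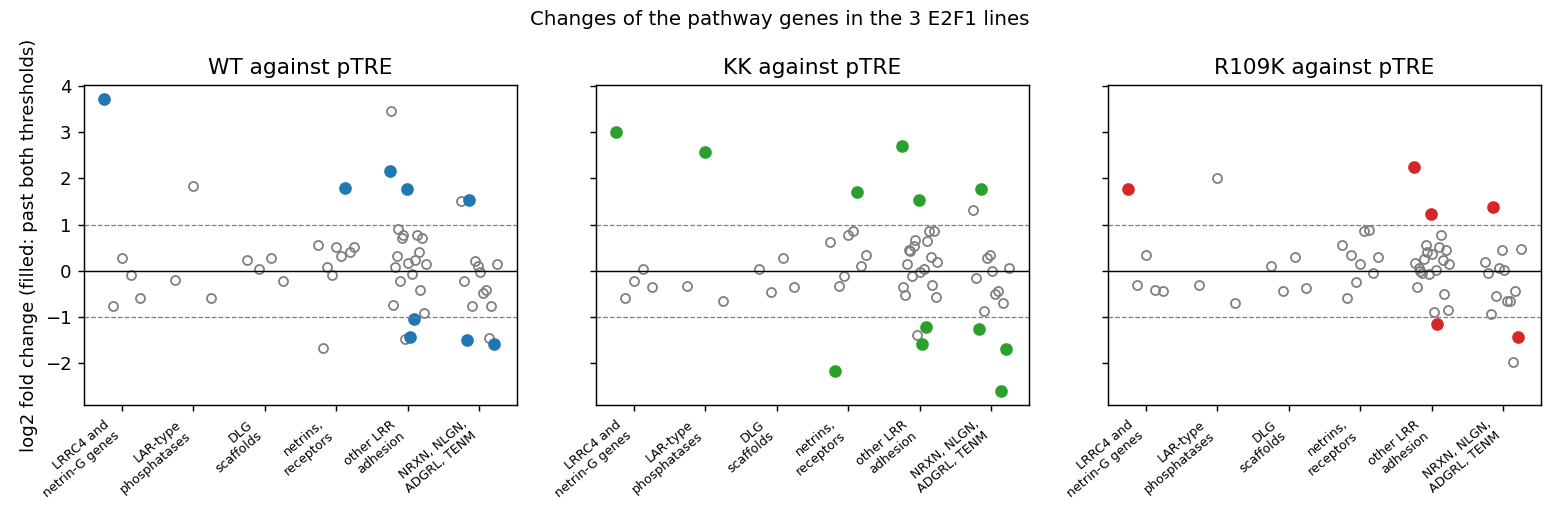
Log2 fold change against pTRE of the 5 members (first column) and of the tested genes of the 5 pathway lists, 1 panel a comparison, with filled points past both thresholds, open points not past them, and dashed lines at 2-fold. Most points lie within 2-fold, and the filled points of the lists number 8 for WT, 11 for KK and 5 for R109K.

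LRRC4 was 1 of 10 among the 67 members and list genes that lie wholly inside an intron of another protein-coding gene. WT replicate 2 had the highest CPM of all 12 samples in 6 of these 10 and in 6 of the other 57. The 10 include FLRT1, which had 12.9 CPM in WT replicate 2 and 2.11 to 7.87 in the other 11 samples, and LRRTM1, which had 0.321 and 0.0380 to 0.657. The part of this library in the FLRT1 change was not tested.

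By annotation, none of the nearest protein-coding neighbours of the members that were tested was called in a comparison with pTRE. PAX4 and LEP, on either side of LRRC4 beyond SND1, had 2 reads or fewer in every sample and were not tested. RAG2, a neighbour of LRRC4C, and VAV3, a neighbour of NTNG1, had at most 5 and 9 reads and were not tested either. PRMT6, which lies 72371 bases from NTNG1, had the smallest adjusted p, at −0.50 ± 0.16 on the log2 scale in WT (SE, adjusted p = 0.0204, edgeR).

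The genes most like each member were ranked by Pearson's r of log2 CPM over the 12 samples, among 13304 other genes whose counts averaged 50 or more. Samples share their line and depth, so r describes these libraries only. Closest to LRRC4 were HIVEP3, a zinc finger transcription factor, at 0.993, LINC00999 at 0.992, CPEB3, a regulator of translation, at 0.989, PHF21B at 0.986 and RGAG4 at 0.986. Without WT replicate 2, an alternative chosen after seeing the data, these were 0.991, 0.989, 0.987, 0.983 and 0.986. HIVEP3 averaged 18.5 ± 1.14 CPM for pTRE, 89.5 ± 33.5 for WT, 69.8 ± 7.35 for KK and 37.2 ± 5.89 for R109K (SD, n = 3). These means stand in the same order as those of LRRC4, which follows from choosing HIVEP3 by its r.

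Closest to LRRC4B were OGFOD3, PARP10, CERS4, RTN4RL2 and CUEDC1, all at 0.970 to 0.972. RTN4RL2 encodes a receptor with leucine-rich repeats that is itself held on the surface by a lipid anchor. Closest to NTNG2 were GALNS, SLC22A17, PTPRN, LZTS3 and ATP2A3, at 0.900 to 0.922. For LRRC4C they were UMPS, NT5C2, BIRC3, LOC101926963 and GSPT1, at 0.799 to 0.864, and for NTNG1 GFM2, STAMBP, TMEM2, NRP1 and HYOU1, at 0.849 to 0.865. Between members, r was −0.90 for LRRC4 and LRRC4B, 0.82 for LRRC4B and NTNG2, −0.68 for LRRC4 and NTNG2, and −0.70 for LRRC4C and NTNG1.

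The label of the cells was checked against marker genes, since the members are best known from neurons. Of 9 osteoblast lineage markers, 5 were tested, led by COL1A1 and SPARC, while SP7, IBSP, BGLAP and COL1A2 stayed under 1 CPM in every sample. The summed CPM of the 9 was 4695 to 5895 in pTRE, 1025 to 1397 in WT, 1268 to 1505 in KK and 1595 to 1745 in R109K. Most of that sum was COL1A1 and SPARC, and its part in the changes of the members was not tested. Of the 5 tested, 60%, 60% and 40% fell past both thresholds in WT, KK and R109K, beside 3.93%, 3.9% and 2.56% of all tested genes. RUNX2 was lower by under 2-fold (log2 −0.60, −0.67 and −0.90). ALPL was not called, at 1.18 CPM in pTRE and 1.16, 1.85 and 1.35 in WT, KK and R109K. Each sample is bulk RNA of 1 cultured line. Less marker RNA in every cell and its loss from part of the cells cannot be told apart. The summed CPM of 10 neuron markers was 110 to 141 over all samples with overlapping lines, 7 of the 10 had a mean of at least 1 CPM in every line, and the neuron genes STMN2, ELAVL3 and ELAVL4 stayed under 1 CPM. Among them MAP2, a microtubule protein, fell in WT and KK (log2 −1.36 and −1.34), and RBFOX3, a splicing factor, rose in R109K (log2 1.14). For 7 glia markers the summed CPM was 8.27 to 11.7. Of the 3 tested, OLIG1 rose in WT, KK and R109K from 0.562 CPM in pTRE (log2 1.45, 1.89 and 1.80, adjusted p = 0.00107, 9.91e-05 and 2.41e-04, edgeR). The other 2 were not called. For 5 leukocyte markers the summed CPM was 14.5 to 17.7 in pTRE and 21.0 to 28.3 in the E2F1 lines, with PTPRC, CD3E and LYZ under 1 CPM in every sample. Most of that sum was CD68, with means of 15.5 CPM in pTRE and 22.3, 23.0 and 23.0 in WT, KK and R109K. Of the 5 markers CD14 rose in WT (2.95-fold, adjusted p = 0.00680, edgeR), and CD68 was higher by under 2-fold in WT, KK and R109K (log2 0.52, 0.56 and 0.57, adjusted p = 0.00841, 0.00535 and 0.00685). The part of these marker genes in the changes of the members was not tested.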

How the data were processed

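Poly(A) RNA from 12 samples, 3 replicates of each of 4 U2OS Tet-On lines grouped by their titles, was sequenced from directional libraries by the authors. Per the submitters' processing notes, reads were trimmed with Trim Galore 0.4.3, aligned to hg19 with STAR 2.5.1 and tested with DESeq2 1.16.1. The authors deposited whole-number counts of reads per gene symbol, 1 file a sample, with 5 summary lines for uncounted reads, which were left out of library sizes and tests. The gene annotation and the strand setting of the counting are not given in the sources used here.

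The tests used edgeR 4.0.16 (R 4.3.3). Genes kept by filterByExpr (16625) were normalized by TMM and fitted by quasi-likelihood, with 1 coefficient per line over all 12 samples. P-values were two-sided and adjusted by the Benjamini-Hochberg method over all 16625 genes in each of 6 comparisons. The SE of a log2 change was derived from its test, as the absolute change divided by the square root of the F statistic. A gene was called at an adjusted p under 0.01 and a change over 2-fold, the thresholds of the study's methods. CPM uses TMM library sizes. With 3 samples a line, p-values measure the spread between these samples. The labels do not say what a replicate number shares. In the data, deviations of same-numbered R109K and KK samples from their line means correlated at 0.294 to 0.470 over all 3 pairs (−0.342 to 0.037 for different numbers), and those numbers were taken to pair the samples. On simulated counts with known changes the fit was tested before use.

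Genes named are E2F1, the members, their overlapping and nearest protein-coding genes, all LAR-type phosphatases and DLG scaffolds, at most 3 largest rises and falls of the other lists per comparison, and the 5 genes most like each member. SND1-IT1 and the genes within introns were added after their values were seen. The members and lists were chosen with earlier results of these data known. 1 marker gene of the leukocyte list is not reported here. Positions come from the GENCODE v44 annotation lifted to GRCh37 and promoters from RefSeq (GRCh38.p14).

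Alternatives were DESeq2 1.42.0, RLE normalization, no filter, a minimum of 10 counts in every sample, only the 6 samples compared, a replicate block, each replicate left out, glmTreat's test against 2-fold, and a threshold of 0.05 on the adjusted p. Chosen after seeing the data were levels without WT replicate 2 and a block in only the R109K and KK samples.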

Additional observations from a re-analysis of the deposited data

Results flagged for a closer look

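LRRC4 in R109K differed from WT in the direct test of the difference between these E2F1 lines, which is why it is listed here (log2 −1.94 ± 0.33, SE, adjusted p = 0.00684, edgeR). The study had picked LRRC4 from these same samples for a lower level in R109K than in KK, so this p is not independent evidence. The call was lost in 7 of 14 alternatives, among them the replicate block and the fit of only these 6 samples. All 3 R109K samples (1.49 to 1.98 CPM) were below all 3 WT samples (3.29 to 10.8 CPM).

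UNC5B, the netrin receptor gene, also differed between E2F1 lines by the direct test, with a log2 difference of −0.91 for R109K against WT (adjusted p = 0.00303) and −0.82 for R109K against KK (adjusted p = 0.00981, edgeR). Both differences were under 2-fold, and all 3 R109K samples (37.1 to 41.3 CPM) were below all WT and KK samples (60.6 to 80.4 CPM).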

How the results depend on the processing

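Of 557 alternative values, 521 kept direction and side of the threshold or stayed within 1.5 times a count. Most fold changes in that total were small and not called at first, so keeping their side says little. The 12 lost calls of single genes were all of LRRC4, 7 for R109K against WT and 5 for R109K against pTRE. LRRC4 remained called in WT and KK against pTRE under every alternative. Tested against 2-fold with glmTreat, the LRRC4 values of 1.76 in R109K against pTRE (adjusted p = 0.245) and −1.94 in R109K against WT (adjusted p = 0.950) were no longer called, so 0 members were called in either comparison, and the list genes called fell to 2 in WT, 3 in KK and 0 in R109K. That test called 3.56%, 3.41% and 1.87% of all genes against pTRE, and 1 gene of all in R109K against WT. A minimum of 10 counts in every sample, which tests fewer genes, left 7 list genes in KK. In R109K against WT, a fit of only the 6 samples gave −1.96 (adjusted p = 0.0636) and 0 members called, as it called 0 of all genes.

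With the replicate number as a block over all 4 lines, LRRC4 in R109K against WT was −1.88 (adjusted p = 0.0135) and 0 members were called there, and no other call of a member was changed by that block. In the R109K and KK samples alone, the block gave −1.25 for LRRC4 and 1 member called, in place of 0. That member was LRRC4, which the study had picked for this comparison, so the call is not evidence. In the other 5 pairs of lines at least 1 same-number pair correlated at 0.1 or less. Whether the samples there share more than a number is not known. Of 12 samples, 7 correlated best with a sample of their own number.

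Leaving out 1 replicate at a time gave LRRC4 values of 1.66 to 1.87 in R109K against pTRE and −2.29 to −1.50 in R109K against WT, with 0 to 1 members called in each. List genes called were 7 to 9 in WT, 7 to 12 in KK and 3 to 5 in R109K, with 7 in KK without pTRE replicate 2 and 3 in R109K without pTRE replicate 1 or R109K replicate 1. NTNG1 in KK against pTRE ran from −0.019 to 0.082, and NTNG2 in R109K against KK from −0.20 to 0.0082, changing sign around 0. The causes were not tested. The 12 to 15 reads on LRRC4 in each pTRE sample limit the precision of its folds.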

Other observations

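Of the 10 genes inside introns of other genes, 6 had their highest CPM in WT replicate 2, while LRRTM1, LRFN4, FLRT3 and AMIGO3 lay there within the range of the other 11 samples. LRRTM2, a binder of neurexins inside an intron of CTNNA1, had 138 reads there (11.1 CPM) and 0.142 to 0.450 CPM in the other 11 samples. LRRN3, inside an intron of IMMP2L, had 26 reads (2.09 CPM) and 0.0367 to 0.214 CPM in the others. CTNNA1 itself had 333 CPM in WT replicate 2 and 345 to 457 CPM in the others, and IMMP2L 4.90 and 6.33 to 9.96 CPM. The summed CPM of 50 genes named as intron transcripts was 208 in WT replicate 2 and 31.9 to 56.4 in the other 11 samples. LRRTM2 and LRRN3 were chosen after their values were seen.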
